A study of Rattus norvegicus with 6 samples.

Results

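The tropomyosins, calponins and transgelins are 3 families of proteins that lie along or crosslink actin filaments. Their 10 genes (Tpm1 to Tpm4, Cnn1 to Cnn3, Tagln, Tagln2 and Tagln3) were taken by symbol from a table of 21857 genes, and all 10 had a row. The table holds RNA sequencing counts of adipose-derived mesenchymal stem cells, stromal cells from the fat of Sprague Dawley rats. One group had received 3.432 mM BCAA (the branched chain amino acids leucine, isoleucine and valine) and the other its vehicle, for 12 h and with 3 libraries each. All cells of both groups were in 100 µM hydrogen peroxide, an oxidant, and in high-glucose DMEM made without BCAA, with serum and antibiotics. A condition without peroxide was not analysed here. The labels give neither the age of the animals nor whether libraries came from separate animals or cultures, and each p-value here rests on the scatter among 3 libraries a group, some of which may be technical.

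Tropomyosins are coiled-coil dimers that bind end to end in the groove of the actin filament and decide which myosins and severing proteins reach it. Calponins bind actin and calmodulin and slow the myosin motor in smooth muscle, and transgelins are smaller relatives of the calponins that share their actin-binding calponin homology domain. Each family has members known chiefly from muscle and members found in most cells. In stromal cells and fibroblasts the muscle-type members are known to rise when the cells become contractile, and several are targets of serum response factor (SRF), which binds the CArG box. Here Tpm1, Tpm2, Cnn1 and Tagln were counted as muscle-type, although Tpm1 and Tpm2 also make non-muscle isoforms. Tpm3, Tpm4, Cnn2, Cnn3 and Tagln2 were counted as broadly expressed, and Tagln3 as neuronal.

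Library totals lay between 12725344 and 15739731 counts. Vehicle replicate 1 stood apart from the other 5 libraries on the first principal component (score 26.8 against -15.2 to 0.54). Results that rest on it are given with and without it. The 9 stromal markers with a row summed to 16181 to 16667 CPM (counts scaled to a common library total) with BCAA and 15923 to 17502 CPM with vehicle. All 9 were tested, 4 were higher and 5 lower in sign, and none was called (edgeR's quasi-likelihood test with Benjamini-Hochberg adjustment, threshold 0.05, used throughout). Adipocyte markers summed to 10.7 to 10.99 CPM with BCAA and 8.93 to 10.5 CPM with vehicle, and Adipoq was below 0.3 CPM on average in both groups. Leukocyte markers summed to 83.0 to 85.6 CPM with BCAA and 78.3 to 80.4 CPM with vehicle. Cd68 averaged 31.4 CPM with BCAA and 29.6 CPM with vehicle. Ptprc, Csf1r and Adgre1 averaged 15.1 to 18.6 CPM in the 2 groups, and Cd3e was at 0. All 4 leukocyte markers tested were higher in sign with BCAA, as were 6244 of all 12298 genes tested, and none of the 4 was called.

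Of the 10 genes 9 passed the filter on low counts, and all 9 had a lower fitted level with BCAA, the sign of 49.2% of the 12298 genes tested. Tagln and Tpm2 fell, and the other 7 did not pass the threshold. A lower call was made for 0.171% of all genes tested. Lower calls numbered 5 of the 9 with DESeq2 (0.998% of its genes), 4 without the filter (0.404%) and 6 without vehicle replicate 1 (2.2%). They numbered 1 without BCAA replicate 1, 2 or 3 or vehicle replicate 2 (0.0403%, 0.0482%, 0.0481% and 0.0642% of genes), and 2 without vehicle replicate 3 (0.0803%). The 4 muscle-type members had log2 fold changes from -0.61 to -0.32 (median -0.50). The 5 broadly expressed members had values from -0.27 to -0.07 (median -0.14), and the median of all genes tested was 0.00353. Without vehicle replicate 1 the medians were -0.44 for the muscle-type and -0.14 for the broadly expressed members. The ranges of the classes then overlapped, with broadly expressed Cnn2 at -0.30 and muscle-type Tpm1 at -0.27. In 7 of the 9 genes every BCAA library lay below every vehicle library, which was so for 8.76% of all genes tested. Those 7 were the 4 muscle-type members and Tpm3, Tpm4 and Cnn2. In bulk RNA, fewer contractile cells and less of a transcript per cell cannot be told apart.

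**Figure D1:**
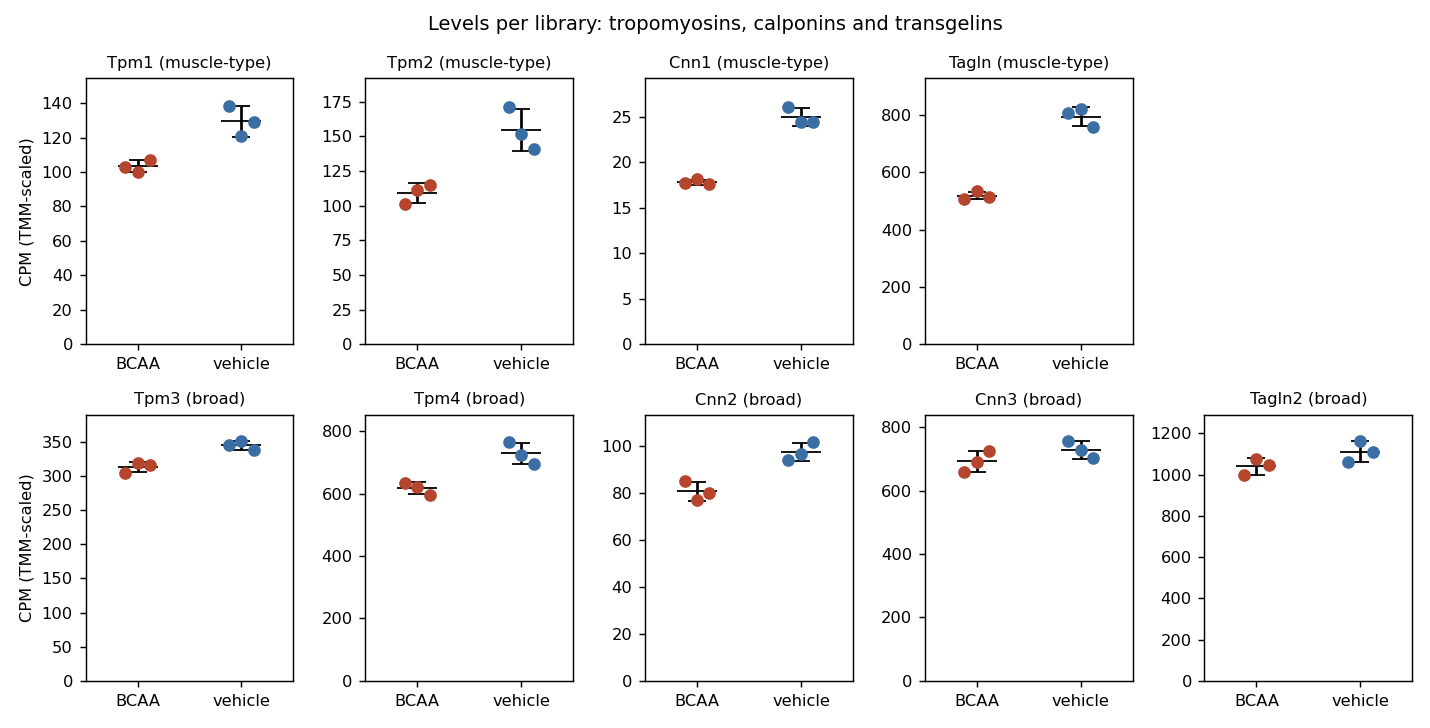
Level of each tested gene in CPM with TMM-scaled library sizes, from 0. Points are libraries, with BCAA left and vehicle right, and bars are the mean and SD of 3 libraries. The groups are separate for all genes but Cnn3 and Tagln2.

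Tagln encodes transgelin, also called SM22, which crosslinks actin filaments and is an early marker of smooth muscle. Tagln was at 507, 534 and 515 CPM in the BCAA libraries, against 805, 820 and 758 CPM in the vehicle libraries. The groups were far apart, with 224 CPM between the highest BCAA and the lowest vehicle library. Transgelin mRNA averaged 519 ± 13.7 CPM in BCAA libraries and 794 ± 32.7 CPM in vehicle libraries (SD, n = 3 each). Tagln fell 1.53-fold (95% interval 1.40 to 1.68; log2 fold change -0.61, SE 0.06, edgeR adjusted p = 0.00036). The call held with each library left out in turn, where the highest adjusted p of edgeR was 0.0085. It rested on 6580 to 12920 counts per library.

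Tpm2 encodes beta-tropomyosin, abundant in smooth and slow skeletal muscle. Tpm2 was at 101, 111 and 115 CPM in the BCAA libraries, against 171, 152 and 141 CPM in the vehicle libraries. The vehicle libraries were the more scattered, and the groups lay 26.0 CPM apart at their nearest. Tpm2 fell 1.42-fold (log2 fold change -0.50, SE 0.08, 95% interval -0.68 to -0.33, edgeR adjusted p = 0.017). This call was lost without any one of the BCAA libraries or without vehicle replicate 2, with edgeR adjusted p from 0.060 to 0.18 and log2 fold changes from -0.54 to -0.45. Without vehicle replicate 1, the highest library, the log2 fold change was -0.42 (edgeR adjusted p = 0.00040).

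Cnn1 encodes the smooth muscle calponin, the family member that is most restricted to smooth muscle. Cnn1 was at 17.7, 18.1 and 17.6 CPM in the BCAA libraries, against 26.1, 24.4 and 24.4 CPM in the vehicle libraries. The groups did not overlap, and each was tight (SD 0.275 CPM with BCAA and 0.979 CPM with vehicle). The counts behind these levels were small, 225 to 286 per library with BCAA and 312 to 385 with vehicle. Cnn1 thus lay 1.40-fold lower with BCAA, with a log2 fold change of -0.49 (SE 0.10), but at an edgeR adjusted p of 0.057 it did not pass. Cnn1 passed the threshold without vehicle replicate 1 (edgeR adjusted p = 0.019), with DESeq2 (0.015) and without the filter on low counts (0.022).

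Tpm1 encodes alpha-tropomyosin, the main tropomyosin of heart and a major one of smooth muscle. Tpm1 was at 103, 100.2 and 107 CPM in the BCAA libraries, against 138, 121 and 129 CPM in the vehicle libraries. The groups were separate by 13.7 CPM. The log2 fold change of Tpm1 was -0.32 (SE 0.07, edgeR adjusted p = 0.078). It passed without vehicle replicate 1 (log2 fold change -0.27, edgeR adjusted p = 0.015), with DESeq2 (0.014) and without the filter (0.025). The counts are per gene, so muscle and non-muscle isoforms of Tpm1 and Tpm2 were not separated.

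Among the broadly expressed members, Tpm4 encodes a short cytoskeletal tropomyosin of stress fibres. Tpm4 was at 636, 622 and 597 CPM in the BCAA libraries, against 766, 724 and 696 CPM in the vehicle libraries. Every BCAA library lay below every vehicle library. The log2 fold change was -0.24 (95% interval -0.37 to -0.10; edgeR adjusted p = 0.14), and the gene passed with DESeq2 (0.038) and without vehicle replicate 1 (edgeR adjusted p = 0.030). Cnn2, the calponin of many non-muscle cells, was at 85.1, 77.2 and 80.2 CPM in the BCAA libraries, against 94.4, 96.9 and 101.8 CPM in the vehicle libraries. The groups of Cnn2 were also separate. Its log2 fold change was -0.27 (95% interval -0.43 to -0.12, edgeR adjusted p = 0.14). It passed without vehicle replicate 1 (log2 fold change -0.30, edgeR adjusted p = 0.013).

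Tpm3, which makes a slow muscle and many cytoskeletal tropomyosins, had a smaller difference. Tpm3 was at 304, 318 and 316 CPM in the BCAA libraries, against 345, 351 and 338 CPM in the vehicle libraries. Its groups were separate, with a log2 fold change of -0.14 (95% interval -0.26 to -0.01; edgeR adjusted p = 0.38). Cnn3, the acidic calponin of non-muscle cells, was at 659, 690 and 726 CPM in the BCAA libraries, against 757, 727 and 701 CPM in the vehicle libraries. The groups of Cnn3 overlapped, and its log2 fold change was -0.07 (95% interval -0.21 to 0.06; edgeR adjusted p = 0.68). It was -0.05 without vehicle replicate 1 and -0.04 without BCAA replicate 1. Tagln2, the transgelin of non-muscle cells, was at 996, 1077 and 1048 CPM in the BCAA libraries, against 1061, 1163 and 1112 CPM in the vehicle libraries. The groups of Tagln2 overlapped too, and its log2 fold change was -0.10 (95% interval -0.23 to 0.04; edgeR adjusted p = 0.59). For Cnn3 and Tagln2 these intervals reach at most a 1.16-fold and a 1.17-fold lower level with BCAA.

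Tagln3, the transgelin of neurons, had 0 counts in all 6 libraries. A count of 0 allows up to 3 counts, or 0.190 to 0.235 CPM per library, by counting error alone. Of 7 neuronal markers, 2 passed the filter. Tubb3 averaged 19.7 CPM with BCAA and 21.6 CPM with vehicle. Snap25 averaged 0.786 CPM with BCAA and 0.605 CPM with vehicle, and Rbfox3 was also at 0.

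**Figure D2:**
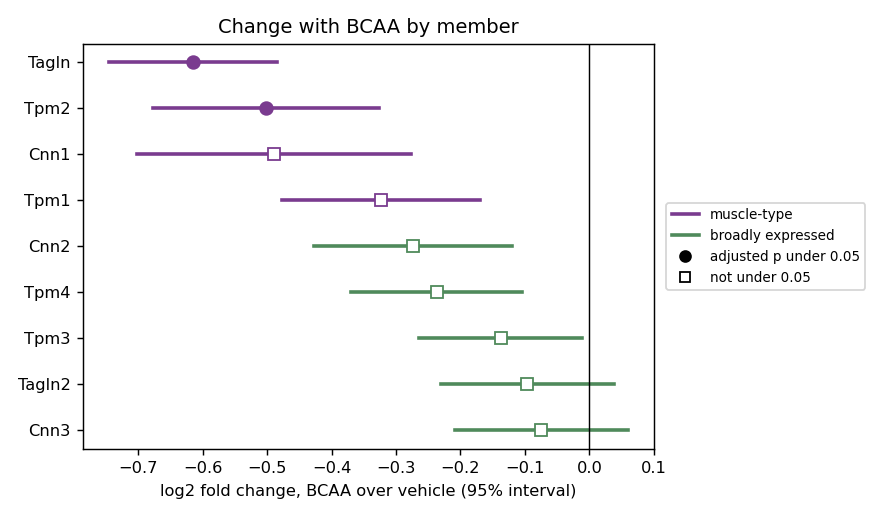
Log2 fold change of each tested gene, BCAA over vehicle, with its 95% interval. Purple marks muscle-type and green broadly expressed members, and filled circles mark an edgeR adjusted p under 0.05. With all libraries, the muscle-type genes lie from -0.61 to -0.32 and the broadly expressed genes from -0.27 to -0.07.

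Promoters are shown because the muscle-type genes lay lower together and because the CArG box is the known SRF site of this gene class. RefSeq windows from 250 bases before to 50 bases after the start (rat assembly GRCr8, not the rn6 build of the counts) were found for 9 of the 10 genes, in 12 windows, and not used for Tagln. The 250 bases before the start are printed 5′ to 3′ along the gene. They are given for Tpm1 (chromosome 8, minus strand), Tpm2 (chromosome 5, minus strand) and Cnn1 (chromosome 8, plus strand) among muscle-type genes, and for Cnn2 (chromosome 7, minus strand) and Tagln2 (chromosome 13, plus strand) among broadly expressed genes. Capitals mark a CArG box, a CArG box with 1 mismatch, or the TEAD motif GGAATG on either strand.
Tpm1: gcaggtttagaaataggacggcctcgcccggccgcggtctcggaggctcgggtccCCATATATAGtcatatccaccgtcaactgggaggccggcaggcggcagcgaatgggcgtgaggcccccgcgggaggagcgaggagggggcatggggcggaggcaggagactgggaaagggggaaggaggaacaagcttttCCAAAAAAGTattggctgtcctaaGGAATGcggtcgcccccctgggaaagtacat
Tpm2: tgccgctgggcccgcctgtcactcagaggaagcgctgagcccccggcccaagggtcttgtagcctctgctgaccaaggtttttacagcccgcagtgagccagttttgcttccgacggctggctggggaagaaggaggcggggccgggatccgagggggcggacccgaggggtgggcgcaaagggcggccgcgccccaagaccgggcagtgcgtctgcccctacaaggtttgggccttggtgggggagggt
Cnn1: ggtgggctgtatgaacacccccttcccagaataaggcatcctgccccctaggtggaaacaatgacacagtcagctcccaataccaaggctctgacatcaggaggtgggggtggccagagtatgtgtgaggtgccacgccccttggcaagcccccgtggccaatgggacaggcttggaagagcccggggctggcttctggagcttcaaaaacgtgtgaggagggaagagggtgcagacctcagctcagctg
Cnn2: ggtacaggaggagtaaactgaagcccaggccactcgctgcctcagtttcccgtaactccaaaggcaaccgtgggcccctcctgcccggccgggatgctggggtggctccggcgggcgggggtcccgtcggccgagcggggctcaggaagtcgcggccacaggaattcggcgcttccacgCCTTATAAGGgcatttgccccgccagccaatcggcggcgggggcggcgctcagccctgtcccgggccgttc
Tagln2: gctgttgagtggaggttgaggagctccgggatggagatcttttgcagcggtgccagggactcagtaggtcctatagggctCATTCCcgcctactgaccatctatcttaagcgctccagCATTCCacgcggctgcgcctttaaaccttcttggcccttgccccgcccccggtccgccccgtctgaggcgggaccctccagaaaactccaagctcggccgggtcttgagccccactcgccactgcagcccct

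Across these windows a complete CArG box was found in Cnn2 alone, as CCTTATAAGG starting 71 bases before the start, against 1.64% of all 33469 rat windows. A CArG box with 1 mismatch, searched on both strands, was in 20.1% of all windows. Tpm1 held 2 of these, CCATATATAG and CCAAAAAAGT, starting 195 and 55 bases before the start. Tpm3 held 1 in each of 2 of its 3 windows. The TEAD motif was in 14.2% of all windows. It stood once in Tpm1, 31 bases before the start, and 2 times in Tagln2 as its reverse complement CATTCC, 170 and 132 bases before the start. No motif overlapped another in these genes. The windows of Tpm2 and Cnn1 held no CArG box, complete or with 1 mismatch, and no TEAD motif. The E-box CANNTG, in 72.1% of all windows, was present in the window of Cnn1 and absent from that of Tpm2. These are matches of letters in short windows, and a link between them and the changes in level was not tested.

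A ratio of counts within a family compares the members free of library scaling. Such ratios were compared between libraries only, since levels of different genes need transcript lengths, which were not used here. There were 7 ratios of a muscle-type to a broadly expressed member, and the smallest p that 3 against 3 libraries allow in a two-sided exact permutation test is 0.1. The Tagln to Tagln2 ratio was 0.509, 0.496 and 0.491 in the BCAA libraries, against 0.759, 0.705 and 0.682 in the vehicle libraries. It was thus lower in every BCAA library, 1.43-fold on average (log2 difference -0.52, exact permutation p = 0.1, adjusted over the 7 ratios 0.117). The Cnn1 to Cnn3 ratio was 0.0268, 0.0262 and 0.0243 in the BCAA libraries, against 0.0346, 0.0336 and 0.0349 in the vehicle libraries. These groups did not overlap either (log2 difference -0.41, exact permutation p = 0.1).

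The Cnn1 to Cnn2 ratio was 0.208, 0.235 and 0.220 in the BCAA libraries, against 0.277, 0.252 and 0.240 in the vehicle libraries. The groups came close to touching, and the log2 difference was -0.22 (exact permutation p = 0.1). The Tpm2 to Tpm3 ratio was 0.333, 0.350 and 0.363 in the BCAA libraries, against 0.496, 0.433 and 0.417 in the vehicle libraries. All BCAA values were lower, with a log2 difference of -0.36 (exact permutation p = 0.1). The Tpm2 to Tpm4 ratio differed by -0.26 and the Tpm1 to Tpm3 ratio by -0.18 on the log2 scale, in both cases with no overlap (exact permutation p = 0.1 each). For Tpm1 to Tpm4 the groups overlapped, with a log2 difference of -0.09 (exact permutation p = 0.2). In 6 of the 7 ratios, therefore, every BCAA library lay below every vehicle library, and none could reach a p under 0.1. The ratios share Cnn1 and the tropomyosins, so they are not separate observations. How often ratios of other genes are separate in this way was not counted. Without vehicle replicate 1 the log2 differences were -0.48 for Tagln to Tagln2, -0.41 for Cnn1 to Cnn3, -0.29 for Tpm2 to Tpm3 and from -0.22 to -0.07 for the other 4.

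**Figure D3:**
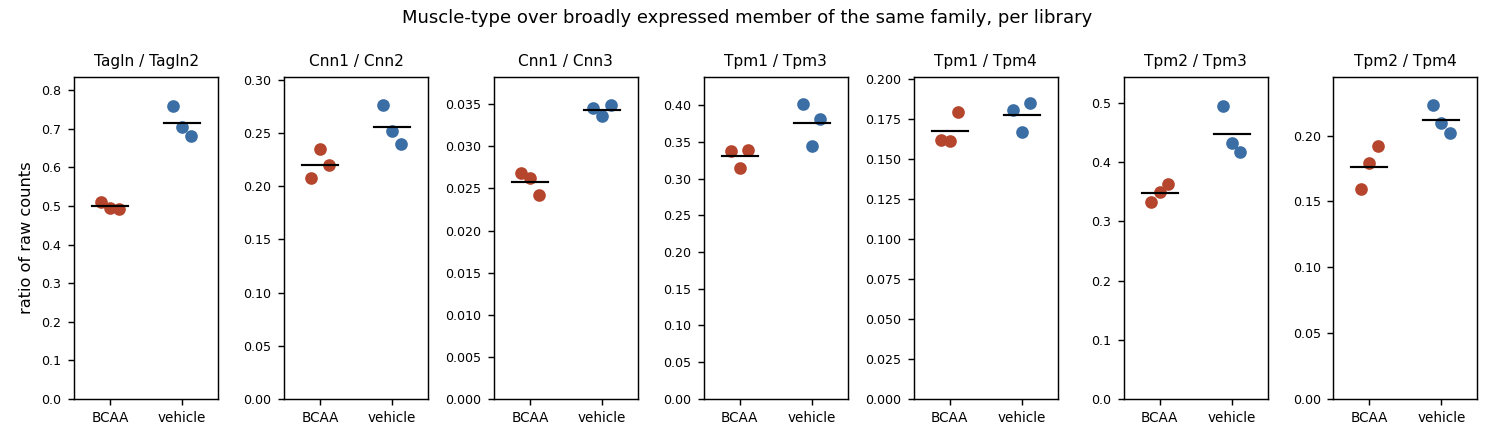
Ratio of raw counts of a muscle-type to a broadly expressed member of its family in each library, from 0, with BCAA left and vehicle right. Lines are geometric means of 3 libraries. The Tagln to Tagln2 ratio is below 0.51 in the BCAA libraries and above 0.68 in the vehicle libraries.

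The same counts can be read as shares of a family. Tagln took 33.7%, 33.1% and 32.9% of the transgelin counts in the BCAA libraries, against 43.1%, 41.4% and 40.5% in the vehicle libraries. Tagln2 held all the rest. Tpm2 took 9.54% ± 0.644 of the tropomyosin counts with BCAA and 11.4% ± 0.622 with vehicle (SD, n = 3 each). Tpm3 took 27.4% ± 0.677 with BCAA and 25.4% ± 0.974 with vehicle, while Tpm4 took 54.1% ± 1.49 with BCAA and 53.7% ± 0.265 with vehicle. Cnn1 was a small part of the calponin counts, 2.26% ± 0.101 with BCAA and 2.94% ± 0.0517 with vehicle. The summed level of the tropomyosins was 1143 ± 8.46 CPM with BCAA and 1356 ± 58.4 CPM with vehicle. That of the transgelins was 1558 ± 54.0 CPM with BCAA and 1905 ± 65.8 CPM with vehicle, and that of the calponins, most of it Cnn3, was 790 ± 31.3 CPM with BCAA and 850 ± 24.7 CPM with vehicle. The sums of the tropomyosins and of the transgelins did not overlap between the groups. Those of the calponins did not overlap either, but the highest BCAA sum of 823 CPM lay next to the lowest vehicle sum of 827 CPM.

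The proteins that work with these families on the filament were followed in lists. Of 12 smooth muscle contractile genes 11 were tested, 3 fell, none rose and 8 did not pass (median log2 fold change -0.40), where lower calls were 0.171% of all genes tested. Acta2, smooth muscle actin, fell to 19.8 ± 0.707 CPM with BCAA, against 36.0 ± 0.884 CPM with vehicle (SD, n = 3 each; edgeR adjusted p = 0.00059). Myl9, the regulatory light chain of smooth muscle myosin, fell to 55.2 ± 4.25 CPM with BCAA, against 78.1 ± 1.48 CPM with vehicle, which is 1.41-fold (log2 fold change -0.50, SE 0.08, edgeR adjusted p = 0.015). Csrp1, a LIM protein of the smooth muscle cytoskeleton, fell to 243 ± 2.31 CPM with BCAA, against 320.2 ± 16.9 CPM with vehicle, which is 1.32-fold (log2 fold change -0.40, SE 0.06, edgeR adjusted p = 0.015). Mylk, the kinase that switches on smooth muscle myosin, had a log2 fold change of -0.27 (SE 0.09, edgeR adjusted p = 0.27). The lowest values of this list, -1.07 for Lmod1, -0.93 for Actg2 and -0.68 for Pdlim3, came from averages of 0.431 to 3.32 CPM and were not called. Cald1, the most abundant of the list, had -0.14, and Smtn had 0.02. Without vehicle replicate 1 the genes of all the lists of filament partners, actins and SRF cofactors gave 7 lower calls and 1 higher call, against 3 lower calls with all libraries, while lower calls over all genes numbered 275 (2.2%), against 21 (0.171%). Without BCAA replicate 1, BCAA replicate 3 or vehicle replicate 2 they gave 1 each.

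Of 19 other actin filament binding proteins 18 were tested and none was called (median -0.06). The lowest p was that of Actn1, alpha-actinin 1 of stress fibres, at 259 ± 4.52 CPM in BCAA libraries and 323 ± 20.2 CPM in vehicle libraries (log2 fold change -0.32, SE 0.06, edgeR adjusted p = 0.057). Lima1, which bundles actin filaments, followed at -0.31 (edgeR adjusted p = 0.11). Cfl1, cofilin, which severs filaments that tropomyosin leaves bare, had -0.13 (edgeR adjusted p = 0.42). Tmod3, a tropomodulin that caps the tropomyosin-coated filament at its pointed end, had 0.17 (edgeR adjusted p = 0.45). Of the non-muscle myosin II chains 4 of 6 were tested and none was called (median -0.12). The light chains Myl12a and Myl6 had log2 fold changes of -0.19 and -0.17, Myl12b -0.07 and the heavy chain Myh10 0.05. The heavy chain Myh9 averaged 0.112 CPM with BCAA and 0.0945 CPM with vehicle in this table and was not tested. Whether reads of Myh9 were lost in the counting could not be checked here, so its level is uncertain.

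Actin itself was lower in sign in all 4 isoforms tested, the sign of 49.2% of all genes tested. Acta2, already counted among the smooth muscle contractile genes, was the only one called, where lower calls were 0.171% of all genes tested. Actb had a log2 fold change of -0.29 (edgeR adjusted p = 0.060), Actg1 -0.27 and Actg2 -0.93, averaging 1.00 CPM with BCAA, against 1.91 CPM with vehicle. Troponins make tropomyosin respond to calcium in striated muscle. Of 12 such striated thin filament genes with a row, 6 were tested and none was called (median -0.20). Their summed level was 20.9 to 22.5 CPM with BCAA and 21.9 to 24.4 CPM with vehicle, most of it from Tnnt3, which averaged 13.8 CPM with BCAA and 14.1 CPM with vehicle. The lowest p values were those of Nebl (log2 fold change -0.84), Lmod3 (0.62), Tnnt2 (-0.64) and Tmod4 (-0.36), each at under 3 CPM. Myod1, the skeletal muscle regulator, was at 0.

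SRF and its cofactors gave no call among 6 tested of 7 in the table (median 0.05). Srf averaged 45.9 CPM with BCAA, against 54.6 CPM with vehicle, a log2 fold change of -0.25 (SE 0.11, edgeR adjusted p = 0.42). Mkl1, the actin-sensing SRF coactivator also called Mrtfa, was at 45.5 CPM with BCAA, against 38.4 CPM with vehicle (log2 fold change 0.24, SE 0.10, edgeR adjusted p = 0.37). The ternary complex factors Elk4 and Elk1 each had 0.12. Myocd, the muscle-restricted coactivator, averaged 0.0697 CPM with BCAA and was at 0 with vehicle, and it was not tested.

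Markers of smooth muscle cells and pericytes, a list that holds Cnn1 and Acta2, summed to 150.5 to 156 CPM with BCAA and 193 to 199 CPM with vehicle. Of 9 tested, 7 were lower in sign, against 49.2% of all genes tested. Acta2, already counted in the lists above, was the only one called, where lower calls were 0.171% of all genes tested. Mcam, an adhesion molecule of pericytes, had a log2 fold change of -0.33 (edgeR adjusted p = 0.0996), Myh11, smooth muscle myosin, -0.23 and Des, desmin, -0.18. The pericyte genes Kcnj8, Cspg4 and Abcc9 had -0.02, -0.07 and 0.32, and Rgs5 was below 0.05 CPM in both groups. The part of such cells in the lower levels of the muscle-type genes was not tested.

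**Figure D4:**
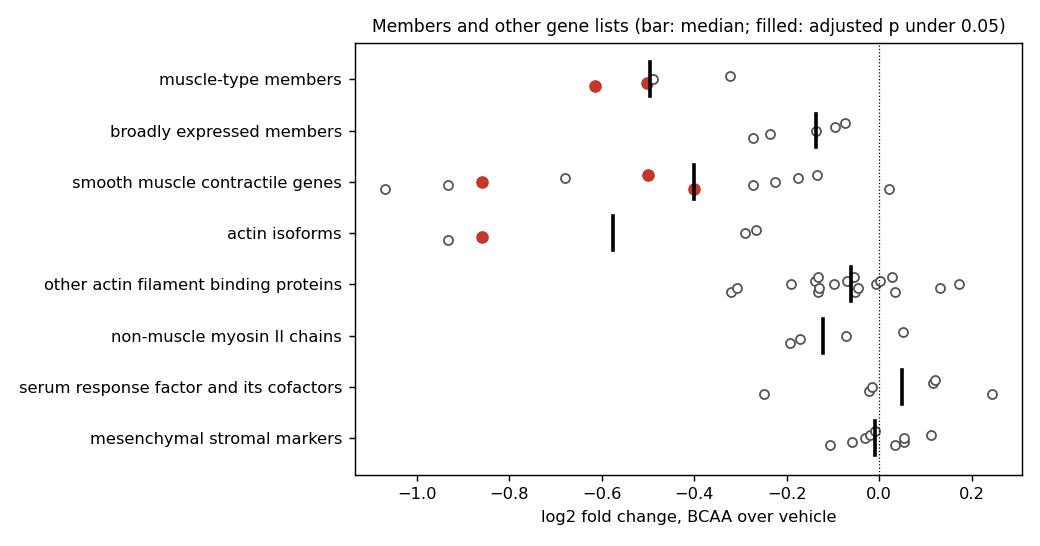
Log2 fold change of each tested gene, BCAA over vehicle, in the tropomyosin, calponin and transgelin genes and in 6 other lists. Black bars are medians, and filled points are genes with an edgeR adjusted p under 0.05. The muscle-type genes and the smooth muscle contractile genes have medians of -0.50 and -0.40, and the stromal markers one of -0.01.

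Genes with the most similar pattern were sought among 8450 genes with at least 10 CPM on average, by Pearson's correlation of log2 CPM over the 6 libraries. These values describe the libraries, which include the difference between the groups. For Tagln they were Acta2 (r = 0.995), the histone chaperone gene Asf1a (0.995), Hypk (0.995), Pcp4 (0.994), which encodes a regulator of calmodulin, and Rbm3 (0.990), a cold-induced RNA-binding protein. For Cnn1 they were Tex2 (0.993), Csrp1 (0.993), Acta2 (0.993), Actb (0.992) and Asf1a (0.991). For Tpm2 they were Trappc1 (0.992), Smim14 (0.991), Cox7c (0.990), Sfrp1 (0.990) and Steap2 (0.990). Among genes of the 3 families the correlation was 0.989 between Tagln and Cnn1 and 0.960 between Cnn1 and Tpm2. It was 0.940 between Tpm1 and Tpm2 and 0.909 between Tpm1 and Tagln. Some pairs of a muscle-type and a broadly expressed member were as high, at 0.967 for Tagln and Tpm3 and 0.958 for Cnn1 and Tpm4. Others were lower, at 0.637 for Cnn1 and Cnn3, 0.621 for Tpm2 and Tagln2 and down to 0.444 for Tpm1 and Tagln2. Tpm3 and Tpm4 had 0.859, and Cnn2 and Cnn3 had 0.341, the lowest of all pairs.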

How the data were processed

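The authors deposited 1 table of raw read counts per gene symbol, with a column for each of 6 libraries and no normalization. The submitters' processing notes name Trimmomatic, FastQC, STAR and HTSeq and the build rn6. Their versions, the annotation and the strand setting were not given in the sources used here. Overlapping and antisense genes may thus share counts, and near-identical genes (the actins) may be split or lost. Columns were matched to library titles, on which all directions rest. Counts were fitted with edgeR 4.0.16 (R 4.3.3; quasi-likelihood, robust, TMM, group as the only term) after filterByExpr (minimum count 10, total 15), which left 12298 genes, and p-values were adjusted over all of them. CPM use TMM-scaled totals. SE is the log2 fold change divided by the square root of F, and 95% intervals use its t distribution. Ratios were tested by exact permutation. The fits were tested on simulated data. Alternatives were DESeq2 1.42.0, no scaling factors, no filter, the replicate number as a block, each library left out, and, for ratios, 0.5 added to each count.

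The 10 genes and the lists (smooth muscle contractile, other actin-binding, myosin II, troponin and striated, SRF, actin, and markers of stromal, smooth muscle, fat, endothelial, leukocyte, skeletal muscle, mesothelial and neuronal cells) were chosen with earlier results of these data known. Named were all 10 genes, the up to 4 genes with the smallest p of each list of filament partners, all tested actins, and the 5 genes most like Tagln, Tpm2 and Cnn1. Lmod1, Pdlim3, Cald1, Smtn, Myl12b, Myh9, Myh10, Myocd, Myod1, Tnnt3 and the marker genes were named after their values were seen. Endothelial markers summed to 3.36 to 4.93 CPM with BCAA and 4.15 to 5.52 CPM with vehicle, skeletal muscle markers to 1.10 to 2.03 with BCAA and 1.65 to 2.35 with vehicle, mesothelial markers to 99.6 to 109 with BCAA and 91.2 to 106 with vehicle, and neuronal markers to 17.9 to 23.0 with BCAA and 22.2 to 22.7 with vehicle. Lmod2, Mkl2, Col1a2, Pecam1, Itgam, Myh1 and Myh4 had no row under these symbols, so they were not analysed here. Pairs of libraries differed beyond counting noise (chi-square per degree of freedom at least 2.65). Library totals of 12725344 to 15739731 give a floor of 3 counts at 0.190 to 0.235 CPM, which covers counting error only.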

Additional observations from a re-analysis of the deposited data

How the results depend on the processing

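All 9 tested genes of the 3 families stayed lower with BCAA under all 10 alternatives, and Tagln stayed past the threshold under each. Of the 9, 2 were called with all libraries, 5 with DESeq2, 4 without the low-count filter, 1 with the replicate block, and 1 to 6 with a library left out, the highest without vehicle replicate 1. Over all genes 28 were called (0.228%), 144 with DESeq2 (1.75% of genes with an adjusted p), 124 without the filter (0.748%), 6 with the replicate block (0.0488%), and 7 to 491 with a library left out, where 491 (3.93%) came without vehicle replicate 1. In the other lists 3 genes were called, 6 with DESeq2, 5 without the filter, 1 with the replicate block and 1 to 8 with a library left out. The cause of these changes was not tested. The Tpm2 call was lost with the block (edgeR adjusted p = 0.22). Deviations of equally numbered libraries correlated at -0.07, 0.11 and -0.15, so the numbers were not taken as pairs, and not every library correlated best with its own number. Library totals were close by number, however, at 14482260 with BCAA and 14484051 with vehicle for replicate 1. They were 15654060 and 15739731 for replicate 2, and 12802663 and 12725344 for replicate 3. Whether a number marks a shared step was not tested. The 7 ratios kept their sign under all 56 alternatives, and with the replicate block the smallest p of the exact test is 0.25. Without scaling factors the log2 fold change of Cnn3 was -0.04 and that of Tagln -0.59. Cnn1 rests on 225 to 385 counts per library, and Tagln3 was at 0.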
